A study of Homo sapiens with 4 samples.

Results

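The 54 genes described here build and control the mitotic apparatus: the kinases and cyclins that start mitosis, the spindle assembly checkpoint, the chromosomal passenger complex, the kinetochore, condensin, and the proteins of the spindle, the midzone and cytokinesis. They are the members of a list of 56 mitosis and spindle checkpoint genes, chosen by symbol, that were found among the 35820 rows of the deposited count table. CCNA2 and CKS2 had no row under these symbols and are not analysed here. All 54 passed the filter on low counts, so none was lost for low values. Their levels were compared between 2 libraries of a TOP3B knockout (KO), clone E2-4, which was edited by CRISPR in exon 2 of that gene, and 2 libraries of its parent, wild-type (WT) HCT116. HCT116 is a human colon carcinoma cell line. TOP3B encodes a topoisomerase that works on DNA and on RNA. The KO cells are 1 clone, so clone and genotype cannot be told apart, and no label tells if replicates are separate cultures. P-values therefore measure the spread between these libraries, which may be technical.

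Mitosis begins when CDK1, bound to cyclin B, is activated by CDC25 phosphatases. The spindle checkpoint then holds the anaphase-promoting complex, a ubiquitin ligase, inactive through its activator CDC20 until every kinetochore is attached to microtubules. Once it is active, this ligase marks securin (PTTG1) and cyclin B for destruction, separase (ESPL1) cuts cohesin, and sister chromatids part. Transcription of many of these genes peaks in G2 and mitosis. It is held down earlier in the cycle by the DREAM complex, which contains the MuvB core and the RB-family proteins RBL1 or RBL2, and it is driven later by MuvB together with MYBL2 and FOXM1. Their promoters often carry a cell cycle genes homology region (CHR), the site bound by MuvB, and CCAAT boxes, bound by NF-Y.

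The libraries held 10450048 and 16143634 estimated counts in KO, and 15141919 and 11750516 in WT. Levels are in CPM, counts scaled to a common library total with the TMM factor. With 0 counts in a library the upper limit (3 counts) was 0.176 to 0.271 CPM, for counting error only. The TMM factor was 0.858 in WT replicate 1 and 1.04 to 1.06 in the other 3 libraries. The TOP3B transcript stood at 43.9 and 54.6 CPM in KO and at 57.0 and 66.4 CPM in WT (log2 fold change -0.32, SE 0.17; edgeR adjusted p = 0.522); an edit in an exon can leave the transcript present, so the RNA level is no check of the edit. Of the colon epithelial markers with a row, EPCAM, KRT8, KRT18, KRT19 and CDH1 were detected in every library, and VIL1 had at most 1 count. The summed level of these 6 markers was 1515 and 1450.1 CPM in KO and 2577 and 2111 CPM in WT, and its part in the results below was not tested. Most of that gap was KRT19, at 1204 and 1082 CPM in KO and 2240.4 and 1742 CPM in WT (log2 fold change -0.80; adjusted p of 0.293 by edgeR and 0.0029 by DESeq2). CDH1 and EPCAM were also lower in KO, without overlap of the groups, at log2 fold changes of -0.76 and -0.38. Their adjusted p was 0.420 and 0.530 by edgeR, and 0.502 and 0.775 by DESeq2. KRT18 had a log2 fold change of 0.41 and KRT8 of -0.08, both with overlapping groups. The leukocyte markers PTPRC and CD3E and the endothelial marker VWF had 0 counts in every library. The fibroblast markers VIM, COL1A1, COL1A2 and PDGFRB together reached 3.52 and 3.81 CPM in KO and 2.69 and 3.84 CPM in WT.

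Promoter sequences show what most of these genes share. For 43 of the 54 genes the RefSeq promoter table (GRCh38.p14) holds the 250 bases before and 50 bases after the gene start. The CHR was searched as TTTGAA and the CCAAT box as CCAAT, on both strands. Matches can share bases and were each counted: in MKI67 the CHR at -29 and the CCAAT match at -24 share 1 base, as do those at -23 and -18 in CDCA8, and CCAAT matches on opposite strands overlap in HMMR and PTTG1. The first start listed for each gene was used. A CHR match was found in 28 of 43 promoters (65.1%), against 868 of 9399 promoters of the other tested genes (9.24%). A CCAAT match was found in 29 of 43 (67.4%), against 3468 of 9399 (36.9%). Both motifs stood in 20 of 43 (46.5%), against 358 of 9399 (3.81%), and 22 of the 43 had at least 2 CCAAT matches (51.2%), against 13.7% of the others. Over all 27305 promoters of the table, 15.4% held the CHR letters and 35.7% the CCAAT letters. Taking any listed start gave 69.8% and 76.7% for the mitotic genes, against 13.3% and 43.6%.

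Below are 6 of these promoters, shown 5′ to 3′ on the strand of the gene, with CHR and CCAAT matches in capitals. PLK1 (chr16:23678639-23678938, plus strand), CDC20 (chr1:43358731-43359030, plus strand) and MKI67 (chr10:128126374-128126673, minus strand) each show a CCAAT box upstream of a CHR. CENPF (chr1:214602945-214603244, plus strand) and NCAPD2 (chr12:6493852-6494151, plus strand) are the genes with the highest and the lowest fold change. CCNB1 (chr5:69166900-69167199, plus strand) holds CCAAT boxes and no TTTGAA in this window.
PLK1: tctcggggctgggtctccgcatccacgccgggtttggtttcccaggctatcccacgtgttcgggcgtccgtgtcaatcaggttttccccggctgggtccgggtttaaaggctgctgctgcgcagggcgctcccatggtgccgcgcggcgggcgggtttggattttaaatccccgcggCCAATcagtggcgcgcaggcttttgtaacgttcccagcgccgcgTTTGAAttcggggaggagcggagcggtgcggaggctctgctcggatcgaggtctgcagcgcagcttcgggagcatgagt
CDC20: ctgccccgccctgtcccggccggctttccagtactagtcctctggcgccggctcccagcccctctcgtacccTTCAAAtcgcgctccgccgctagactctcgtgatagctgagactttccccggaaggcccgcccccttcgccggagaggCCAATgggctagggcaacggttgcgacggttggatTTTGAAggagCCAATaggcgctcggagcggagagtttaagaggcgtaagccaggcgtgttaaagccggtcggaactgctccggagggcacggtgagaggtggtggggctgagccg
MKI67: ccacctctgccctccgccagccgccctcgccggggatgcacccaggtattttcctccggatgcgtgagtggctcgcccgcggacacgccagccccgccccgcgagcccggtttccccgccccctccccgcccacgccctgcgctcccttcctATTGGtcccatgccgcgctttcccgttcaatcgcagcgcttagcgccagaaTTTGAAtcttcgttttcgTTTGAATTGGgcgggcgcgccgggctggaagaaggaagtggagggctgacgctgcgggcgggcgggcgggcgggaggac
CENPF: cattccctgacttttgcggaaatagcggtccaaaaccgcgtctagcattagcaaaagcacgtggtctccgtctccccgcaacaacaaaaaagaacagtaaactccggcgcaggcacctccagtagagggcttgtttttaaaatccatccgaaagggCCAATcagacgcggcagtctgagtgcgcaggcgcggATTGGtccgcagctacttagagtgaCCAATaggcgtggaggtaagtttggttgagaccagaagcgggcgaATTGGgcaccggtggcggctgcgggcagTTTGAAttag
NCAPD2: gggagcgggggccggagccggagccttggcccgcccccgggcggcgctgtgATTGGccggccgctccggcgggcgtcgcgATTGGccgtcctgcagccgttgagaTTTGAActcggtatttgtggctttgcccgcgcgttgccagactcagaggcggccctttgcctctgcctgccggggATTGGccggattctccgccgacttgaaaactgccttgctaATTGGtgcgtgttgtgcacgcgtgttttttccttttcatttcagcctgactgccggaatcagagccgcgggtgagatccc
CCNB1: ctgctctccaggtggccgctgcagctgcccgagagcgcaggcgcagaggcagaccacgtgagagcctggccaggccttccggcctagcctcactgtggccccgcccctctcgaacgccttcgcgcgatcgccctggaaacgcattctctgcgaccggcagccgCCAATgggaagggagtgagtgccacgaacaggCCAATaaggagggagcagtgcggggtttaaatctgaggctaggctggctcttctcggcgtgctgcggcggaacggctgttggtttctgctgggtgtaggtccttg

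Matches had a place in the window. In 16 of 43 mitotic promoters (37.2%) a CHR began within the 50 bases before the gene start, against 1.32% of the others, and in 7 (16.3%) it began in the first 50 bases after it, against 1.19%. CCAAT matches were most frequent between 100 and 50 bases before the start, in 23 of 43 (53.5%) against 16.4%. In PLK1 the CHR began at -29 and the CCAAT box at -73, counted from the start with no base 0. In CENPF the CHR began at 41 and the upstream CCAAT boxes at -94, -58 and -33, with a further one at 13. A match is a run of letters and does not show binding.

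**Figure D1:**
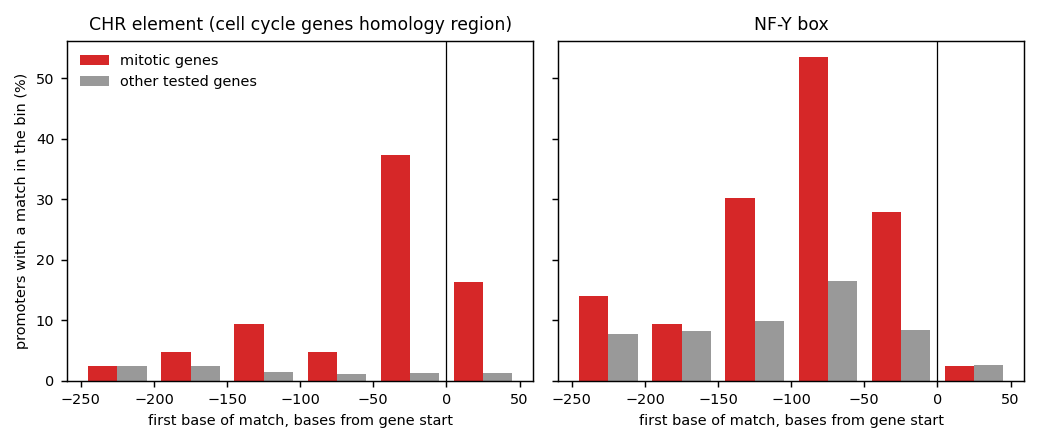
Share of promoters with a motif match beginning in each bin of 50 bases, by distance from the gene start (the line at 0 marks the gene start), for 43 mitotic genes and 9399 other tested genes, with the CHR on the left and the NF-Y (CCAAT) box on the right. The CHR bar of the mitotic genes is tallest in the bin just before the start (37.2%), and the NF-Y bar 100 to 50 bases before it (53.5%).

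As a group the mitotic genes differed little between KO and WT. Of the 54, edgeR's quasi-likelihood test called 0 at an adjusted p under 0.05, against 0.00815% of the 12269 genes tested (1 gene). DESeq2 also called 0, against 1.45% of 12899 genes (0.504% higher and 0.946% lower in KO). At an unadjusted p under 0.05 edgeR gave 7 of 54 (13.0%), against 11.2% of all genes tested. Among the 54, 6 were higher in KO, against 4.97% of all genes, and 1 was lower, against 6.21%. DESeq2 also gave 7 of 54 at that unadjusted threshold, against 1129 of the 12269 genes, but with another split by direction. CENPF, CENPM and ECT2 were higher in KO, and CDC25B, KNL1, ASPM and NCAPG were lower. The median log2 fold change was -0.04 over the 54 genes and -0.01 over all genes tested; 29 of the 54 lay below 0 (53.7%), against 51.5% of all genes. Their summed level was 9689 and 9912 CPM in KO (9801 ± 158, SD, n = 2) and 11501 and 9357 CPM in WT (10429 ± 1516, SD, n = 2). The KO sums lay between the WT sums. Without the TMM factor, the 54 genes made up 1.03% and 1.05% of counts in KO and 0.987% and 0.974% in WT. Both KO shares lay above both WT shares, so the order of the libraries depended on the scaling. In bulk RNA, a different share of cells in mitosis and a different RNA level per cell cannot be told apart.

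Folds of most single genes were small and bounded. The log2 fold change exceeded 0.5 in size in 11 of the 54 (20.4%), against 27.0% of all genes, and 1 in size in 3. The 95% interval of the fold, not adjusted for the number of genes, stayed inside 2-fold in either direction for 37 of the 54 (68.5%), against 50.7% of all genes, and inside 1.5-fold for 21. For the other 17 genes a change of 2-fold was within the interval. In 17 genes both KO libraries lay above both WT libraries (31.5%, against 23.5% of all genes), and in 7 both lay below (13.0%, against 23.5%). In the remaining 30 the groups overlapped, so 24 did not, against 47.0% of all genes.

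**Figure D2:**
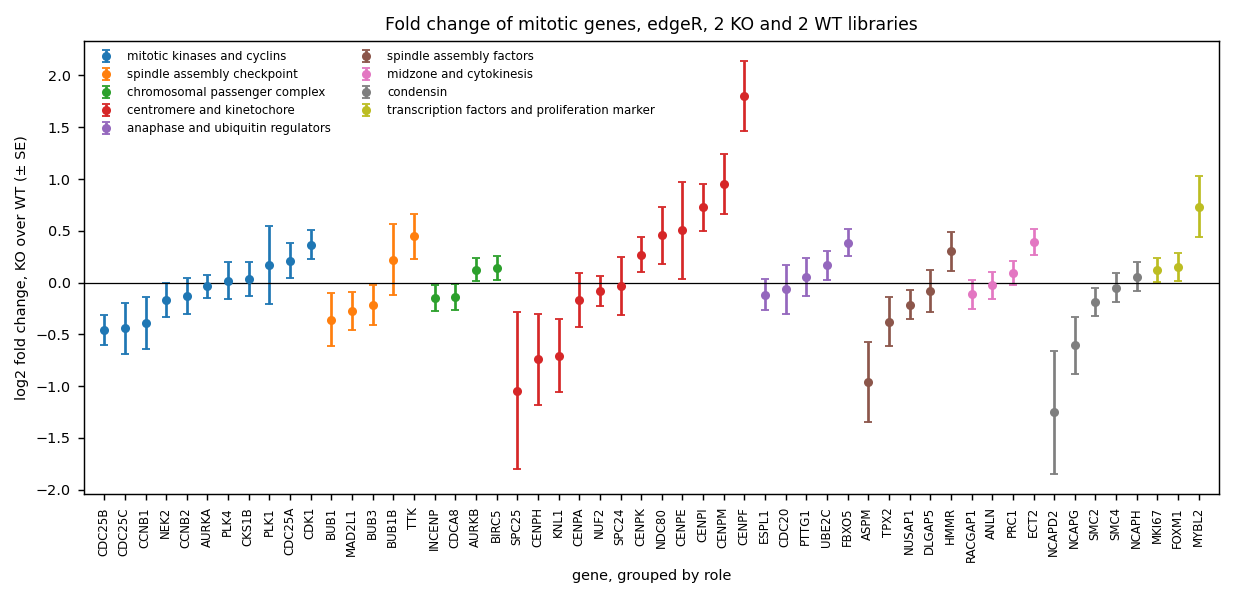
Log2 fold change (KO over WT, edgeR) of the 54 genes with its standard error, grouped by role and ordered within each role. Most points sit close to 0; CENPF lies highest at 1.80 and NCAPD2 lowest at -1.25, and none passed an adjusted p of 0.05.

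The kinases and cyclins of mitotic entry showed no change that passed. Of 11 genes, 5 lay above 0 and 6 below, with a median of -0.04. CDK1, the kinase that drives entry into mitosis, had 114 and 128 CPM in KO and 101 and 86.6 CPM in WT. Both KO libraries lay above both WT libraries (log2 fold change 0.36, SE 0.14; edgeR adjusted p = 0.445). CCNB1, the cyclin B that activates CDK1, had 765 and 773 CPM in KO and 1256 and 760.3 CPM in WT. WT replicate 1 alone was high, and WT replicate 2 lay just below both KO libraries (-0.39, SE 0.26; edgeR adjusted p = 0.574). CDC25B, a phosphatase that removes the inhibitory phosphates of CDK1, had 96.7 and 88.7 CPM in KO and 139.7 and 115 CPM in WT. Each KO library lay below each WT library (-0.46, SE 0.15; edgeR adjusted p = 0.393). The related phosphatase CDC25C had -0.44 (SE 0.25), and CDC25A had 0.21 (SE 0.17), with adjusted p of 0.530 and 0.634 by edgeR.

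Polo-like kinase PLK1, which acts in entry, centrosome maturation and cytokinesis, had 10.5 and 17.8 CPM in KO and 9.62 and 15.6 CPM in WT. The groups overlapped and replicate 2 was the higher one in each (0.17, SE 0.38; edgeR adjusted p = 0.876). AURKA, the Aurora kinase of the spindle poles, had 340.0 and 349 CPM in KO and 346 and 362 CPM in WT. These 4 libraries agreed closely, and the 95% interval of the log2 fold change ran from -0.32 to 0.24. CKS1B, a small subunit that binds cyclin-dependent kinases, had 33.1 and 29 CPM in KO and 28.8 and 31.8 CPM in WT, with overlapping groups (0.03, SE 0.16; edgeR adjusted p = 0.942). PLK4, which starts centriole duplication, the centrosomal kinase NEK2 and the second cyclin B gene CCNB2 had log2 fold changes of 0.02, -0.17 and -0.13, and their groups overlapped.

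Spindle checkpoint genes gave values in both directions. BUB1, a checkpoint kinase at the kinetochore, had 247 and 204 CPM in KO and 357 and 221 CPM in WT. WT replicate 1 was again the high library (-0.36, SE 0.26; edgeR adjusted p = 0.606). BUB1B encodes BUBR1, a part of the mitotic checkpoint complex that blocks CDC20. It had 19.7 and 25.3 CPM in KO and 13.5 and 25.2 CPM in WT, where WT replicate 1 was the low library (0.22, SE 0.34; edgeR adjusted p = 0.810). MAD2L1, the MAD2 protein of the same complex, had 362 and 454 CPM in KO and 553 and 434 CPM in WT, with overlapping groups (-0.28, SE 0.19; edgeR adjusted p = 0.585). TTK, the kinase that recruits the checkpoint proteins, had 62.9 and 72.0 CPM in KO and 40.5 and 58.6 CPM in WT, with both KO libraries higher (0.45, SE 0.22; edgeR adjusted p = 0.501). BUB3, which docks BUB1 and BUBR1, had -0.21 (SE 0.19).

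The chromosomal passenger complex corrects faulty attachments, and its genes had the smallest standard errors of the role groups (median 0.12). AURKB, its kinase, had 153 and 147 CPM in KO and 142 and 133 CPM in WT (log2 fold change 0.13, SE 0.11; edgeR adjusted p = 0.668). BIRC5, the survivin subunit that targets it to chromatin, had 159.9 and 166 CPM in KO and 140.1 and 155 CPM in WT (0.14, SE 0.12; edgeR adjusted p = 0.643). CDCA8 (borealin) and the scaffold INCENP had -0.14 and -0.15. All 4 had groups that did not overlap, against 47.0% of all genes, 2 above (23.5% of all genes) and 2 below (23.5%), with a size of at most 0.15 on the log2 scale. For all 4 the 95% interval lay inside 1.5-fold in either direction.

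Kinetochore genes held the widest range of folds, from -1.04 to 1.80, with 7 of 12 over 0.5 in size (58.3%, against 27.0% of all genes). They also held several of the lowest counts. CENPF, a large protein of the outer kinetochore and nuclear envelope in mitosis, had 10.3 and 7.21 CPM in KO and 2.54 and 2.45 CPM in WT, or 8.75 ± 2.17 against 2.50 ± 0.0608 CPM (SD, n = 2 each). Both KO libraries lay well above the WT pair, at 114 and 123 counts against 33 and 30. The log2 fold change was 1.80 (SE 0.33), the smallest p among the 54 (unadjusted p = 0.00291), with an edgeR adjusted p of 0.260 and a DESeq2 adjusted p of 0.0523. It stayed between 1.53 and 2.04 when any 1 library was left out in edgeR, with adjusted p of 0.0893 to 0.560, and when any 1 library was left out in DESeq2 the adjusted p was 0.238 or more. CENPM, a subunit of the constitutive centromere network, had 18.0 and 12.3 CPM in KO and 7.0 and 8.59 CPM in WT (0.96, SE 0.29; edgeR adjusted p = 0.388). CENPI, of the same network, had 12.6 and 14.5 CPM in KO and 7.77 and 8.67 CPM in WT (0.73, SE 0.23; edgeR adjusted p = 0.389). In both genes the KO libraries lay above the WT libraries, and in neither did the difference pass.

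The NDC80 complex, which grips the microtubule, had values that differed among its subunits. NDC80 itself had 10.1 and 13.3 CPM in KO and 7.39 and 9.73 CPM in WT (0.45, SE 0.28; edgeR adjusted p = 0.556). Its partner NUF2 had -0.08 (SE 0.15) and SPC24 had -0.04 (SE 0.28). SPC25 had 2.08 and 2.99 CPM in KO and 8.62 and 1.88 CPM in WT. The WT libraries of SPC25 were further apart than those of any other of the 54 genes (log2 difference 2.11), so its log2 fold change of -1.04 (SE 0.76; edgeR adjusted p = 0.609) rested on WT replicate 1. Without that library it was 0.43, and without WT replicate 2 it was -1.74. KNL1, the scaffold that binds BUB1 and BUBR1, had 83.4 and 95.8 CPM in KO and 197 and 95 CPM in WT, with WT replicate 1 again the high library (-0.71, SE 0.35; edgeR adjusted p = 0.510). The log2 fold change of KNL1 was -0.08 without WT replicate 1 and -1.13 without WT replicate 2.

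CENPH and CENPK, also of the constitutive network, had -0.74 (SE 0.44) and 0.27 (SE 0.17). CENPH stood at 4.78 and 7.80 CPM in KO and at 13.9 and 7.20 CPM in WT, with overlapping groups. Its log2 fold change was -0.19 without WT replicate 1 and -1.12 without WT replicate 2. CENPA, the histone H3 variant that marks centromeres, had -0.17 (SE 0.26). CENPE, a kinesin that carries chromosomes to the spindle equator, had only 14 and 19 counts in KO and 11 and 10 counts in WT (0.51, SE 0.47), and the 95% interval ran from -0.70 to 1.71.

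**Figure D3:**
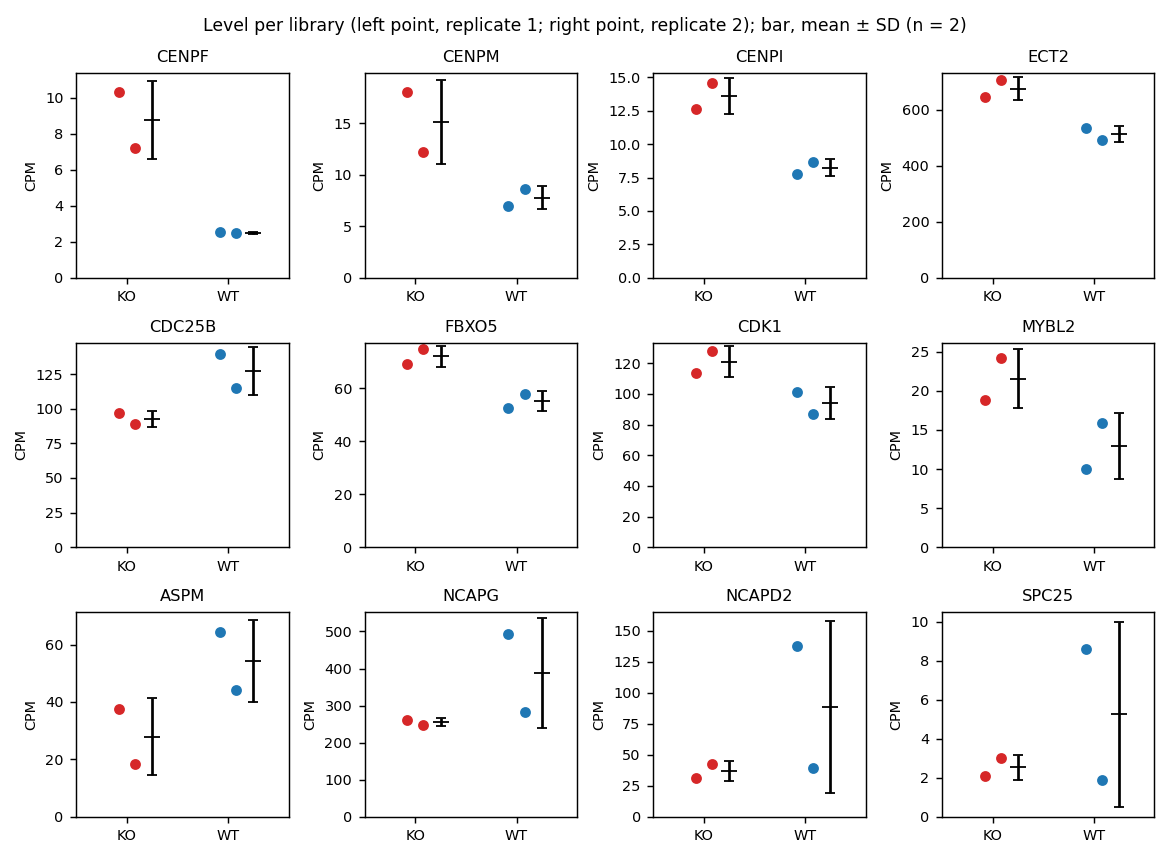
Level in CPM of the 10 genes with the smallest p and of the genes with the 3 highest and 3 lowest fold changes, in KO (left) and WT (right); points are libraries, and black bars show the mean and SD (n = 2). CENPF, CENPM and CENPI lie higher in both KO libraries, while NCAPD2, SPC25 and NCAPG have 1 high WT library.

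Of the 5 regulators of anaphase, 3 lay above 0 and 2 below, with a median of 0.05, and none passed. CDC20, the activator of the anaphase-promoting complex, had 90.2 and 64.2 CPM in KO and 92.7 and 68.8 CPM in WT, with overlapping groups (log2 fold change -0.07, SE 0.23; edgeR adjusted p = 0.921). PTTG1 (securin) had 22.5 and 24.5 CPM in KO and 24.8 and 20.4 CPM in WT, with overlapping groups (0.05, SE 0.18; edgeR adjusted p = 0.918). FBXO5 encodes EMI1, an inhibitor of the anaphase-promoting complex before mitosis. It had 69.1 and 74.7 CPM in KO and 52.4 and 57.8 CPM in WT, with both KO libraries higher (0.38, SE 0.13; edgeR adjusted p = 0.412). The ubiquitin-conjugating enzyme UBE2C and separase (ESPL1) had 0.17 and -0.12.

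Among spindle factors, TPX2, which activates AURKA and nucleates microtubules near chromatin, had 16 and 20.6 CPM in KO and 20.4 and 27.2 CPM in WT, and the groups overlapped (-0.38, SE 0.24; edgeR adjusted p = 0.561). ASPM, which focuses spindle poles, had 37.5 and 18.5 CPM in KO and 64.3 and 44.1 CPM in WT. Both KO libraries were lower, but they lay further apart from each other than the KO libraries of any other of the 54 genes (-0.96, SE 0.39; edgeR adjusted p = 0.458). The log2 fold change of ASPM was -1.55 without KO replicate 1 and -0.53 without KO replicate 2. NUSAP1, HMMR and DLGAP5, which bind or bundle spindle microtubules, had -0.22, 0.30 and -0.08. At the midzone and cleavage furrow, ECT2, the exchange factor that activates RHOA for cytokinesis, had 647 and 707 CPM in KO and 536 and 494 CPM in WT. Both KO libraries were higher (0.39, SE 0.12; edgeR adjusted p = 0.392; DESeq2 adjusted p = 0.217). ANLN (anillin), which organises the contractile ring, had 519 and 506 CPM in KO and 562 and 484 CPM in WT, with overlapping groups (-0.03, SE 0.13; edgeR adjusted p = 0.941). PRC1, which crosslinks midzone microtubules, and RACGAP1 of the centralspindlin complex had 0.09 and -0.11.

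Condensin, the complex that compacts mitotic chromosomes, was uneven across its subunits. The ATPase subunits SMC2 and SMC4 had log2 fold changes of -0.19 (SE 0.14; edgeR adjusted p = 0.613) and -0.05 (SE 0.14), with SMC2 at 138 and 163 CPM in KO and 180.2 and 163 CPM in WT. NCAPH, the kleisin of condensin I, had 0.06 (SE 0.14). NCAPD2, one of its HEAT-repeat subunits, had 31.1 and 42.9 CPM in KO and 138 and 39.3 CPM in WT (-1.25, SE 0.59; edgeR adjusted p = 0.497). NCAPG, the other, had 262 and 247 CPM in KO and 493 and 282 CPM in WT (-0.61, SE 0.28; edgeR adjusted p = 0.488). In both, WT replicate 1 was far above WT replicate 2, which lay near the KO libraries; the groups overlapped for NCAPD2 and not for NCAPG. Without WT replicate 2 the log2 fold change of NCAPD2 was -1.88. Without WT replicate 1 it was -0.08 for NCAPD2 and -0.15 for NCAPG.

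The transcription factors that drive these genes and the proliferation marker had folds above 0 that did not pass. FOXM1 had 141 and 126 CPM in KO and 129 and 111 CPM in WT, with overlapping groups (0.15, SE 0.14; edgeR adjusted p = 0.670). MYBL2 (B-MYB) had 18.9 and 24.2 CPM in KO and 10.0 and 15.9 CPM in WT, with both KO libraries higher (0.73, SE 0.29; edgeR adjusted p = 0.457). MKI67, the Ki-67 antigen found in cycling cells, had 842 and 829 CPM in KO and 787 and 748 CPM in WT (0.12, SE 0.12; edgeR adjusted p = 0.683), with a 95% interval of -0.18 to 0.42. By promoter motif, the 28 genes with a CHR match had a median log2 fold change of -0.07 and the 15 without one 0.06. Their ranges overlapped, at -1.25 to 1.80 and -0.46 to 0.73. The 29 genes with a CCAAT match had a median of -0.07 and the 14 without one -0.01. The 20 genes with both motifs had a median of -0.10.

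**Figure D4:**
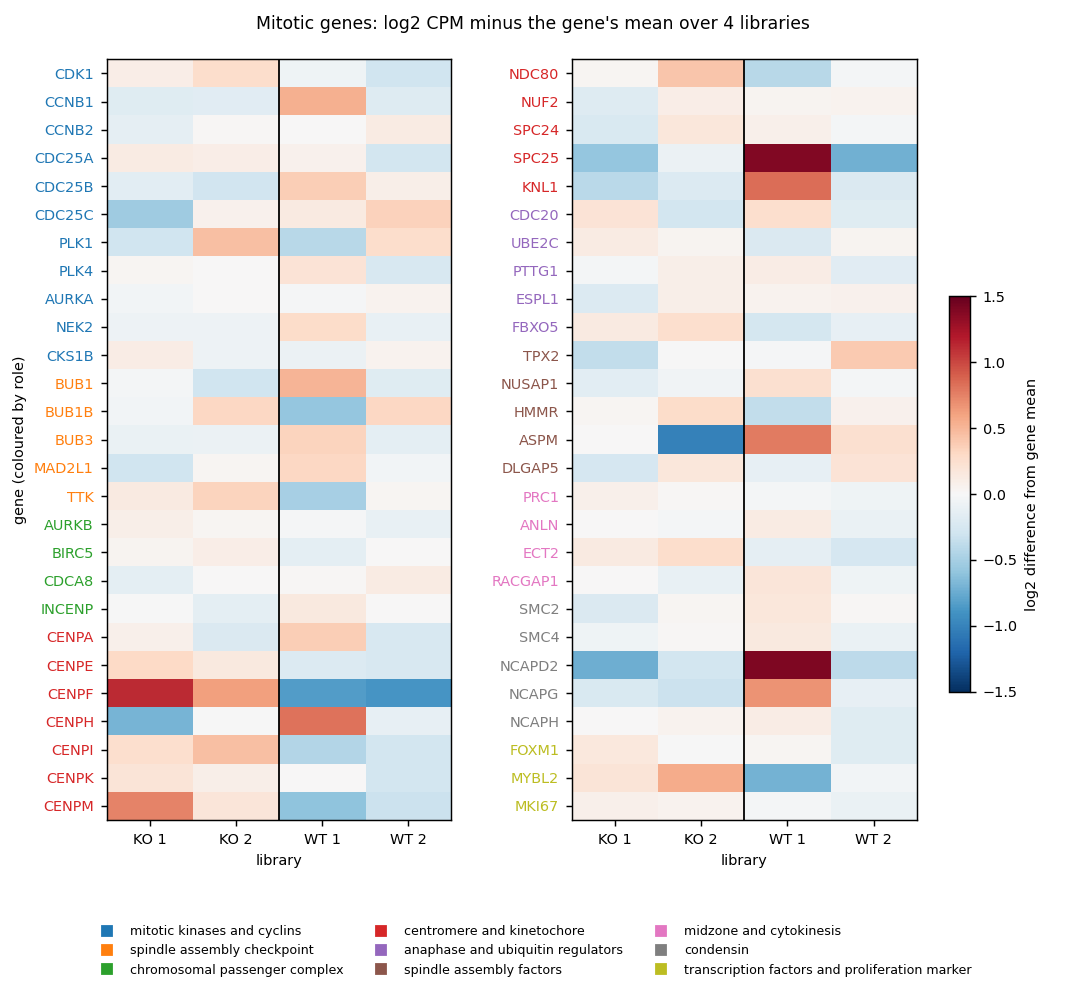
Log2 CPM of each of the 54 genes in each library minus the mean of that gene over the 4 libraries, with KO libraries left of the black line and WT libraries right of it, and gene names coloured by role. SPC25, NCAPD2, KNL1, CENPH, NCAPG and CCNB1 are red in WT replicate 1 alone, and CENPF is red in both KO libraries.

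The folds differed with the library left out. Between WT replicates 1 and 2, 3 of the 54 genes were over 2-fold apart (SPC25, NCAPD2 and KNL1), all higher in replicate 1. Between the KO libraries only ASPM was. The median size of the log2 difference over the 54 genes was 0.17 between the KO libraries and 0.28 between the WT libraries, against 0.22 and 0.27 over all genes tested. Where 1 library of a group is left out, the lone library left is assumed to vary like the other group, and the spread comes from that other pair alone. Calls from such fits are therefore not read as results about the mitotic genes. Without WT replicate 2, the edgeR log2 fold change was -0.42 for BUB3, -0.70 for CCNB1 and -0.65 for BUB1. It was -1.13 for KNL1, -1.88 for NCAPD2 and -0.94 for NCAPG. Without WT replicate 1, it was 0.048 for BUB3, 0.017 for CCNB1 and 0.026 for BUB1. KNL1, NCAPD2 and NCAPG then had -0.083, -0.084 and -0.15. Other genes moved the other way, such as MYBL2, with 1.12 without WT replicate 2 and 0.44 without WT replicate 1. ECT2 had 0.35 without WT replicate 2 and 0.46 without WT replicate 1. Over all 4 edgeR fits that each left out 1 library, the sign of the log2 fold change was kept for 33 genes, 19 above 0 and 14 below.

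**Figure D5:**
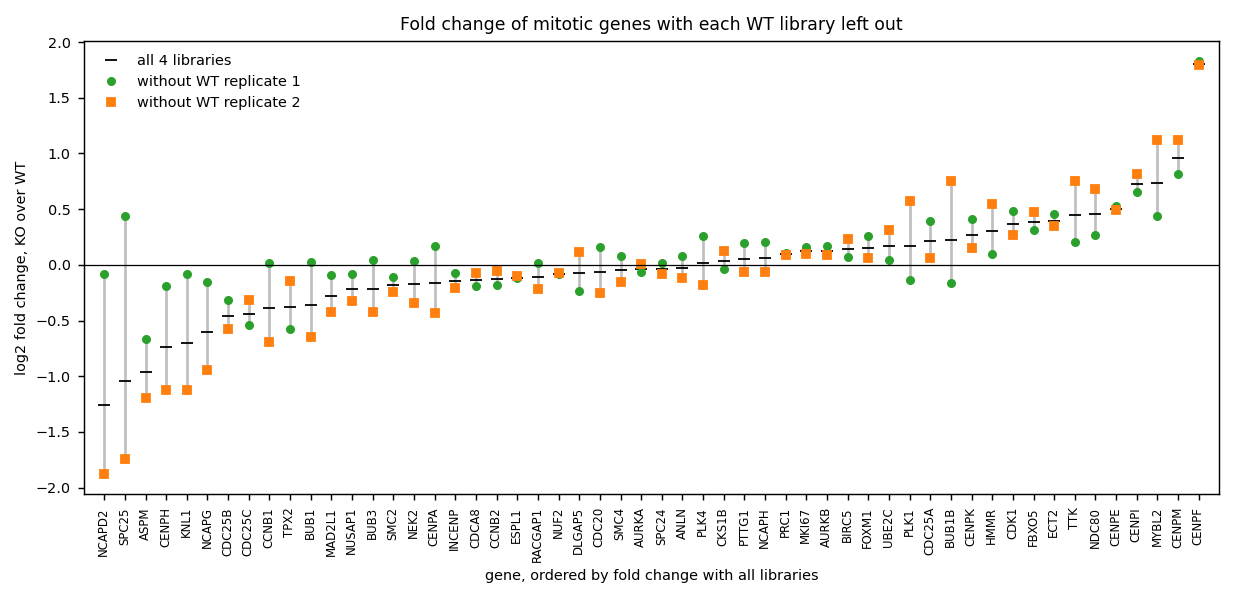
Log2 fold change (KO over WT) of the 54 genes from all 4 libraries (dash), without WT replicate 1 (circle) and without WT replicate 2 (square), ordered by the value from all libraries. Most genes at the low end lie nearer 0 without WT replicate 1 (NCAPD2 at -0.08, against -1.25 with all libraries). CDC25C (-0.54, against -0.44) and TPX2 (-0.57, against -0.38) lie further from 0, and CENPF stays at 1.79 to 1.83.

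Compared per length, in the deposited RPKM (reads scaled by gene length and library total), CCNB1 stood highest with a mean of 121 RPKM over the 4 libraries, followed by BUB3 at 114 and MAD2L1 at 79.3. At the low end were CENPE at 0.0296, SPC25 at 0.0994 and CENPF at 0.251 RPKM. The gene length was not read from a source but implied by the counts, library totals and RPKM. It was a median of 0.590 of the genomic span of the 54 genes (range 0.276 to 1.53). The largest value, CENPA at 1.53, exceeds the span, so the implied length is only approximate. With such lengths, RPKM of genes with long introns would be lower than a transcript length would give. The order is that of the authors' scale. In GENCODE 29, 6 of the 54 genes overlap another row's gene on the same strand and 16 on the opposite strand, and 18 have rows named as their pseudogenes. Among these, CENPA overlaps SLC35F6, BUB1B has the readthrough gene BUB1B-PAK6, and CKS1B and UBE2C have pseudogene rows of up to 77 and 150 counts. Whether counting used strand is not given in the sources used here, so values of these genes are uncertain to that extent.

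Other genes of mitosis, 135 with a row and 125 tested in 8 lists, gave a median log2 fold change of -0.01, with 62 above 0 and 63 below. By edgeR 0 of them passed, 14 had an unadjusted p under 0.05, against 11.2% of all genes (8 higher, against 4.97%, and 6 lower, against 6.21%). By DESeq2 RBL2 was the 1 gene that passed, against 1.45% of all genes. The anaphase-promoting complex had 12 of 16 genes below 0 and a median of -0.10. Its small subunit gene ANAPC13 had 73.7 and 73.1 CPM in KO and 49.9 and 54.3 CPM in WT (0.49, SE 0.12; edgeR adjusted p = 0.337). Cohesin genes had 9 of 14 below 0 and a median of -0.16; the gene of smallest p was MAU2, of the cohesin loader (-0.30, SE 0.15; edgeR adjusted p = 0.514). Further kinetochore and checkpoint genes, 27 in number, had a median of -0.01, and SKA3, which couples kinetochores to microtubules, had 0.39 (SE 0.14; edgeR adjusted p = 0.420). Condensin II had 2 tested genes, with NCAPH2 at 0.35 (SE 0.12; edgeR adjusted p = 0.427).

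Of the 14 genes of DREAM, MuvB and NF-Y, 9 lay above 0 and the median was 0.09. RBL2, the p130 pocket protein of DREAM, had 0.722 and 0.586 CPM in KO and 11.8 and 2.94 CPM in WT, at 8 and 10 counts against 153 and 36. The KO pair lay below the WT pair, whose libraries were themselves far apart. The log2 fold change was -3.49 (SE 0.80), with an adjusted p of 0.304 by edgeR and 0.0110 by DESeq2. Regulators of mitotic entry and exit had 10 of 14 above 0 and a median of 0.15, with ARPP19, whose product inhibits a phosphatase during mitosis, at 149.6 and 173 CPM in KO and 118 and 112 CPM in WT (0.49, SE 0.13; edgeR adjusted p = 0.349). Among 25 spindle pole and augmin genes, with RHOA and its effector CIT, the median was -0.03. RHOA had 48 and 55 counts in KO and 8 and 12 in WT (2.23, SE 0.47; edgeR adjusted p = 0.274), a low estimate for a gene that every cell uses. CDK inhibitors and G1 cyclins had 8 of 13 above 0 and a median of 0.11, with RB1 at 27 and 35 counts in KO and 14 and 14 in WT (1.00, SE 0.42; edgeR adjusted p = 0.467).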

How the data were processed

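RNA was measured by ribosome-depleted total RNA-seq, with a stranded kit and paired-end reads, per the labels' protocols. The authors deposited estimated counts per gene, as whole numbers, and RPKM of all 4 libraries. Per the submitters' processing notes, the tool was Salmon 1.10.1 and the build hg19. Annotation and filters: not given in the sources used here. RPKM were used only to compare levels between genes.

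The counts, already whole, were tested with edgeR 4.0.16 (limma 3.58.1, R 4.3.3; TMM, filterByExpr, quasi-likelihood F-test on genotype alone, Benjamini-Hochberg adjustment over 12269 genes, threshold 0.05). The standard error is the log2 fold change divided by the square root of F. DESeq2 1.42.0, other scalings and filters, a replicate block and leaving out each library were alternatives; DESeq2 without each library was chosen after seeing the data. Scripts were tested on simulated data.

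Members and lists were chosen with earlier results of these data known, so they are described by counts and medians and not tested as sets. Named genes were those called, the 10 of smallest p, the 3 highest and lowest folds, and a fixed list of 21 well-known members. Of that list 19 had a row. All others are given by value or count, and TTK, KNL1, CENPE and CENPH were shown by library after their values were seen. In the further lists, the called gene or that of smallest p is named. Promoters came from RefSeq (GRCh38.p14).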

Additional observations from a re-analysis of the deposited data

How the results depend on the processing

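With all 4 libraries, 0 mitotic genes were called under every alternative; leaving out 1 library gave 0 to 5 with edgeR and 0 to 6 with DESeq2. Over all genes 187 were called by DESeq2, 5 with upper-quartile scaling and 34 with no filter, and leaving out 1 library gave 0 to 575 with edgeR and 72 to 721 with DESeq2 (75 and 85 in between). Without 1 library the log2 ratio of summed levels was -0.22 to 0.067 and the median log2 fold change was -0.068 to 0.045 for the mitotic genes, -0.17 to -0.030 for the anaphase-promoting complex, -0.18 to 0.047 for cohesin, -0.057 to 0.019 for further kinetochore genes, -0.022 to 0.43 for condensin II, -0.067 to 0.042 for DREAM, 0.11 to 0.20 for entry and exit, -0.039 to 0.056 for spindle poles and 0.075 to 0.22 for CDK inhibitors. Calls within the complex, cohesin, kinetochore, DREAM and spindle pole lists were 0 to 1. The condensin II median was 0.35 with DESeq2 and 0.36 with no filter, DREAM had 1 call with DESeq2, and entry and exit had 0.19 with upper-quartile scaling. That scaling also turned AURKA (0.0023) and ANLN (0.017) above 0. Without 1 library the log2 fold change was -0.12 to 0.084 for ANLN, -0.069 to 0.0071 for AURKA, -0.65 to 0.026 for BUB1, -0.16 to 0.75 for BUB1B, -0.70 to 0.02 for CCNB1, -0.33 to 0.16 for CDC20, -0.063 to 0.13 for CKS1B, -0.27 to 0.57 for PLK1, -0.065 to 0.20 for PTTG1 and -1.74 to 0.43 for SPC25. The causes of these differences were not tested.

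With the replicate number as a block, 0 mitotic genes and 1 gene in all were called, the median was -0.04, and the adjusted p of CENPF was 0.326. Over all genes tested, the difference between replicates 1 and 2 in WT correlated with that in KO at 0.058. This value cannot show whether same-numbered libraries were handled together, which was not tested. A group of 2 libraries limits every comparison here. The standard errors were largest for SPC25 (0.76), NCAPD2 (0.59) and CENPE (0.47) among the 54 genes.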
